A study of Mus musculus with 4 samples.

Results

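This section covers 10 genes that encode secreted growth factors: the platelet-derived growth factors Pdgfa, Pdgfb, Pdgfc and Pdgfd, the vascular endothelial growth factors Vegfa, Vegfb and Vegfc with their relative placental growth factor (Pgf), hepatocyte growth factor (Hgf) and insulin-like growth factor 1 (Igf1). They are 10 of 23450 listed genes, and all 10 were matched by symbol. The genes were listed by family, except that Pdgfc was picked because it was read in LT-HSC only. The LT-HSC to ST-HSC difference of Pdgfc is therefore a description without a test. The other 9 were not picked by a stated value, but the list was drawn up with earlier results of these data known.

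RNA was sequenced from hematopoietic stem cells (HSCs) of mouse bone marrow, sorted by surface proteins, in 4 libraries of 2000 cells each. The 2 long-term HSC (LT-HSC) libraries came from cells lacking CD48 and CD34, carrying CD150 and high for the tetraspanin CD9. The 2 short-term HSC (ST-HSC) libraries came from cells lacking CD48, carrying CD150 and low for CD9, with no CD34 gate given. All 4 libraries thus share the CD48 and CD150 gates. The labels give no strain, age, genotype or treatment, and do not say whether libraries of a group came from different animals, so p-values speak only of the scatter among these libraries, and it may be technical. Recovered reads ranged from 13063740 to 16143865 per library. Levels are in CPM, reads per 1000000 reads of the library.

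These factors act on cells that carry the matching receptor tyrosine kinases. PDGF dimers bind the receptors encoded by Pdgfra and Pdgfrb, VEGF family members bind those of Flt1, Kdr and Flt4 with neuropilin co-receptors, HGF binds Met, and IGF1 binds the receptor of Igf1r. In bone marrow, such factors are best known as products of stromal cells, megakaryocytes, macrophages and endothelium, and blood stem cells have themselves been described as sources of some of them.

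The upstream windows of 3 members are shown because both LT-HSC libraries exceeded both ST-HSC libraries for each of them: Pdgfc and Igf1 had the widest differences among the members, and Vegfc had a narrow spread in both groups. They are the 250 bases before the annotated start in the RefSeq table, on GRCm38.p6, and not on mm9, the build named for the deposited values. The table had an entry for 9 of the 10 members, not for Pdgfb. Capitals mark matches on either strand to any of 8 motifs: ACGTG or GCGTG (the core bound by HIF factors), GGGCGG for the GC box, GCGTGGGCG for EGR factors, TGACGTCA for the CRE, TGANTCA for AP-1, AGATAA for GATA factors, CCGGAA for ETS factors and TATAAA for the TATA box. The EGR letters contain a GCGTG, so those matches can overlap.
Pdgfc, chr3:81036166-81036415, plus strand: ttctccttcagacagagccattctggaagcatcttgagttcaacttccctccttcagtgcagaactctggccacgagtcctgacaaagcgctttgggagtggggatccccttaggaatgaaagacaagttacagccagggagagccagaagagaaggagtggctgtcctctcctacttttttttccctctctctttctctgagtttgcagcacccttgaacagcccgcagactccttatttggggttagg
Igf1, chr10:87860861-87861110, plus strand: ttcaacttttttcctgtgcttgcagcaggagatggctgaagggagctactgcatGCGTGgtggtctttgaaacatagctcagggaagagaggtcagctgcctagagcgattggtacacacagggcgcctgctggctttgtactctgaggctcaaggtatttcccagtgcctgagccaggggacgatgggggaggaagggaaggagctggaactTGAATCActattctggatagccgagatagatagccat
Vegfc, chr8:54077282-54077531, plus strand: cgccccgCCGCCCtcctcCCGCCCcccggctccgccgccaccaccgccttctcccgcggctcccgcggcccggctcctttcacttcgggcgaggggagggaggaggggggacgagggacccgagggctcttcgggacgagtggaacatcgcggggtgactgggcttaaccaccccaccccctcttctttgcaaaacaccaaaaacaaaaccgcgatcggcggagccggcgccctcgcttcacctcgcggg
The Pdgfc window held no match to the 8 motifs. The Igf1 window held a HIF core from base -196 to -192 and an AP-1 match from base -37 to -31, counted from the start. Of 32851 windows of this length in the table, 38.6% held a HIF core and 6.75% an AP-1 match. The Vegfc window, with 71.6% G and C against a median of 52.4% over all windows, held 2 GC boxes, a motif found in 32.7% of windows. A match is a string of letters and not a measured binding site.

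Igf1 was, per length of transcript, the most abundant of the 10 factors in LT-HSC, and several other members also stood higher there, but no gene passed the test. Igf1 was 16.7-fold higher in mean CPM, Pdgfc was read in LT-HSC only, and Vegfc was 2.05-fold higher. In the comparison of LT-HSC with ST-HSC by limma on log2(CPM + 1), 0 of 12569 tested genes passed an adjusted p of 0.05 (0%). At an unadjusted p under 0.05, limma gave 361 genes higher (2.87%) and 453 lower (3.60%) in LT-HSC, and limma-voom on the recovered reads also passed 0 after adjustment and 620 before it. A filter of at least 1 CPM in at least 2 libraries kept 9 members and left out Pgf. Among the 8 tested members other than Pdgfc, both LT-HSC libraries exceeded both ST-HSC libraries for 5 and lay below both for 0, where the background over all tested genes is 16.1% above and 17.5% below. The median log2 fold change of these 8 was 0.99, beside -0.01 over all tested genes. Since the members were chosen with earlier results of these data known, this count and median are a description. A positive log2 fold change is higher in LT-HSC throughout, on the log2(CPM + 1) scale, which understates changes of low genes. In bulk libraries, fewer cells making a transcript and less of it per cell cannot be told apart.

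**Figure D1:**
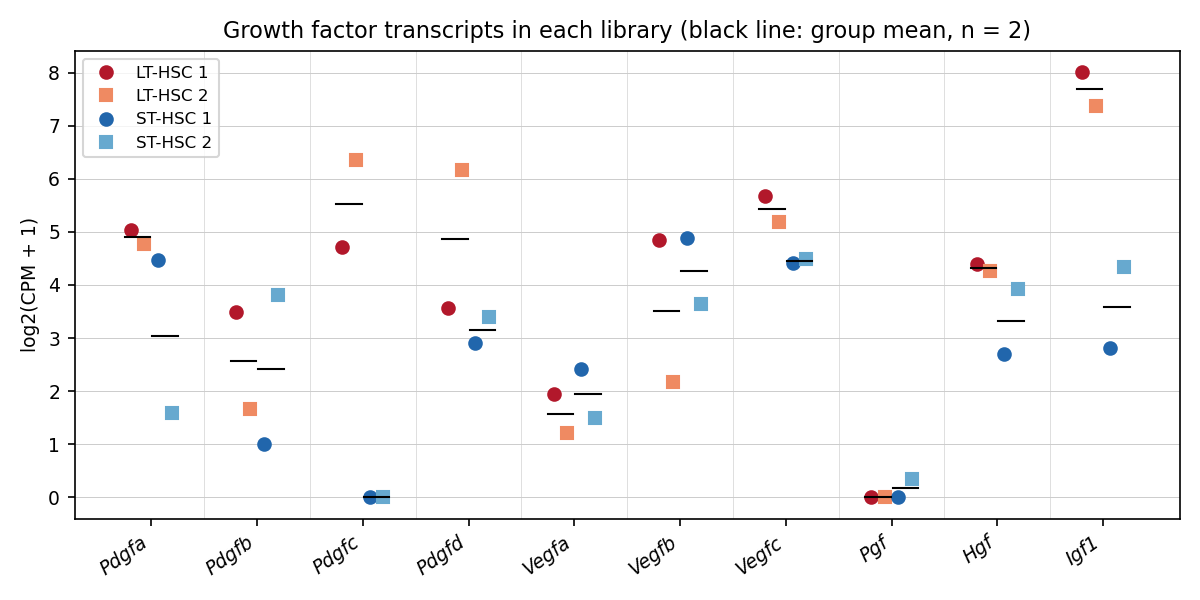
Level of each growth factor transcript, log2(CPM + 1) on the vertical axis, with 1 point per library and a black line at each group mean (n = 2). Igf1 and Pdgfc show the widest gaps between LT-HSC (red, orange) and ST-HSC (blues), while Pdgfb, Vegfa and Vegfb overlap between the groups.

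Igf1 encodes a growth and survival factor that signals through the IGF1 receptor. It stood at 257 and 164 CPM in LT-HSC 1 and 2 and at 6.05 and 19.2 CPM in ST-HSC 1 and 2, from 3361 and 2650 reads in LT-HSC and 91 and 285 in ST-HSC. The groups lay far apart, and the lower LT-HSC library was well above the higher ST-HSC library. The group means were 210.5 ± 65.7 CPM (SD, n = 2) and 12.6 ± 9.31 CPM (SD, n = 2). The log2 fold change was 4.11 ± 0.68 (SE), rank 41 from the highest of 12569 genes, and did not pass (limma adjusted p = 0.716, unadjusted p = 0.00191). Between libraries of number 1 it was 5.19 and between those of number 2 it was 3.03. Leaving out each library in turn gave 3.35 to 4.87.

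Pdgfc encodes a PDGF chain that is secreted latent and becomes active after its CUB domain is cleaved off. It had 328 reads (25.1 CPM) in LT-HSC 1, 1306 reads (80.8 CPM) in LT-HSC 2 and 0 reads in both ST-HSC libraries. The LT-HSC libraries differed from each other by 1.65 on the log2 scale, so the level within LT-HSC is loosely fixed. At a floor of 3 reads, 0 reads allow up to 0.199 CPM in ST-HSC 1 and 0.202 CPM in ST-HSC 2. Against the mean of these floors Pdgfc was at least 264-fold higher in LT-HSC, or at least 125-fold without LT-HSC 2 and at least 403-fold without LT-HSC 1. These are the values for which the gene was picked. Floors and intervals cover counting error only, as amplified reads are not independent molecules.

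A total of 249 genes had at least 3 reads in both LT-HSC libraries and none in either ST-HSC library, and 142 genes showed the mirror pattern. With at least 300 reads in both libraries of the group, a level that Pdgfc reached, there were 8 and 1 genes. Loss of a read gene also occurred between libraries of the same group. Of 8845 genes with at least 300 reads in ST-HSC 1, 107 (1.21%) had none in ST-HSC 2, and of 8202 such genes in LT-HSC 1, 93 (1.13%) had none in LT-HSC 2. In the other direction the shares were 0.337% in ST-HSC and 0.440% in LT-HSC.

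By distance in log2(CPM + 1) over the 4 libraries, the named genes nearest to Pdgfc included Smtnl1, Pde9a, Plekhb1 and Clec7a. Smtnl1, a smoothelin-like gene, had 573 and 1295 reads in LT-HSC 1 and 2 and 0 in ST-HSC, at a distance of 0.781. Pde9a, a phosphodiesterase gene, had 196 and 740 reads in LT-HSC and 1 and 4 in ST-HSC. Clec7a, which encodes the lectin receptor dectin-1, had 385 and 546 reads in LT-HSC and 0 in ST-HSC. These 4 genes were high in both LT-HSC libraries and at or near 0 in both ST-HSC libraries, which is what the distance selects.

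**Figure D2:**
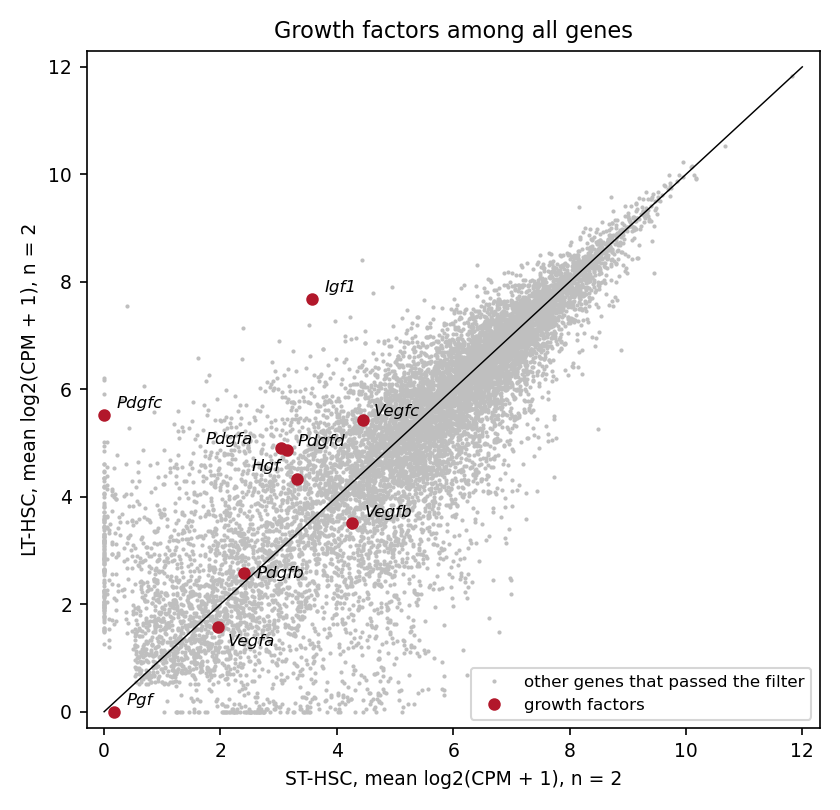
Mean log2(CPM + 1) in LT-HSC (vertical axis) against ST-HSC (horizontal axis), n = 2 each, for genes that passed the filter (grey) and the 10 growth factors (red), with the line of equal level. Pdgfc lies on the axis where ST-HSC is at 0, Igf1 lies 4.11 above the line, and Pdgfb, Vegfa and Vegfb lie near it.

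The remaining PDGF genes differed in their pattern over the libraries. Pdgfa, which encodes the chain that binds PDGF receptor alpha, stood at 31.6 and 26.3 CPM in LT-HSC 1 and 2 and at 21.3 and 2.02 CPM in ST-HSC 1 and 2. Each LT-HSC library exceeded each ST-HSC library, but ST-HSC 2 stood apart from ST-HSC 1 by 2.89 on the log2 scale. The 90th percentile of such ST-HSC differences is 2.47 for genes with a mean of 10 to 100 CPM over all 4 libraries. Its log2 fold change was 1.86 ± 1.23 (SE, limma adjusted p = 0.869), and 0.42 without ST-HSC 2.

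Pdgfd, like Pdgfc a latent chain with a CUB domain and a ligand mainly of PDGF receptor beta, was read in all 4 libraries. Its levels were 10.9 and 70.8 CPM in LT-HSC 1 and 2 and 6.45 and 9.50 CPM in ST-HSC 1 and 2. LT-HSC 2 was the high library, and LT-HSC 1 lay only just above ST-HSC 2. The log2 fold change of 1.72 ± 1.17 (SE, limma adjusted p = 0.870) became 0.42 without LT-HSC 2. Both Pdgfc and Pdgfd were thus highest in LT-HSC 2.

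Pdgfb encodes the chain known from platelets and from endothelial recruitment of pericytes. It had 10.2 and 2.17 CPM in LT-HSC 1 and 2 and 0.997 and 13.1 CPM in ST-HSC 1 and 2. The groups overlapped fully, with a high and a low library in each. The exact Poisson 95% intervals from the reads, 0.558 to 1.64 CPM in ST-HSC 1 and 11.4 to 15.1 CPM in ST-HSC 2, do not meet. They treat reads as independent, which amplified reads are not, so sampling of few molecules was not tested. Its log2 fold change was 0.16 ± 1.46 (SE, limma adjusted p = 1.0), and leaving out LT-HSC 1 gave -0.75, leaving out ST-HSC 1 -1.25.

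Among the VEGF genes, Vegfc alone separated the groups. Vegfc, the lymphatic endothelial growth factor gene, stood at 50.0 and 35.5 CPM in LT-HSC 1 and 2 and at 20.3 and 21.4 CPM in ST-HSC 1 and 2. Each LT-HSC library exceeded each ST-HSC library, and the ST-HSC libraries nearly coincided. The means were 42.7 ± 10.3 CPM and 20.9 ± 0.773 CPM (SD, n = 2 each), and the log2 fold change was 0.98 ± 0.61 (SE, limma adjusted p = 0.860). Leaving out each library in turn gave 0.74 to 1.22.

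Vegfa, the main angiogenic ligand and a textbook target of hypoxia signalling, was scarce, with 37 and 21 reads in LT-HSC 1 and 2 and 65 and 27 reads in ST-HSC 1 and 2. These are 2.83 and 1.30 CPM in LT-HSC and 4.32 and 1.82 CPM in ST-HSC, and the groups overlapped. For Vegfa, the log2 fold change was -0.38 ± 1.03 (SE, limma adjusted p = 1.0), and 0.07 without ST-HSC 1. Vegfb, whose product binds the receptor of Flt1, stood at 27.8 and 3.53 CPM in LT-HSC 1 and 2 and at 28.6 and 11.5 CPM in ST-HSC 1 and 2. Its groups overlapped as well, with the lowest value in LT-HSC 2. For Vegfb it was -0.76 ± 1.26 (SE, limma adjusted p = 1.0), and 0.58 without LT-HSC 2. Pgf, another ligand of the Flt1 receptor, had 0 reads in 3 libraries and 4 reads in ST-HSC 2 (0.270 CPM, 95% exact Poisson interval 0.0735 to 0.690), so no difference was detectable at this depth.

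Hgf encodes a ligand that is cleaved to its active form and binds MET. It stood at 19.9 and 18.3 CPM in LT-HSC 1 and 2 and at 5.52 and 14.2 CPM in ST-HSC 1 and 2. The LT-HSC libraries were close to each other and above both ST-HSC libraries, of which ST-HSC 1 was the low one. The log2 fold change was 1.01 ± 0.94 (SE, limma adjusted p = 0.936), and 0.40 without ST-HSC 1.

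**Figure D3:**
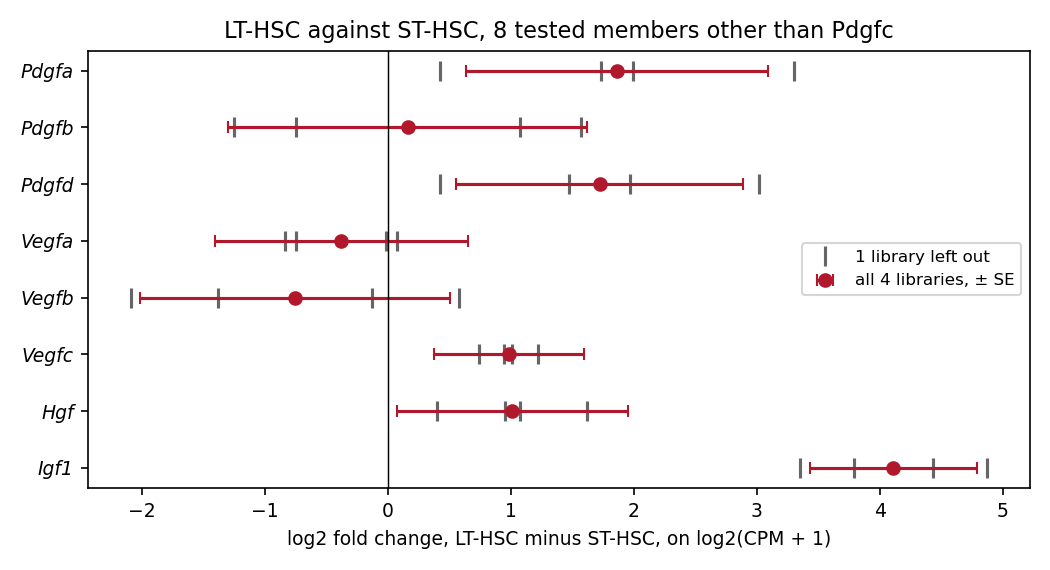
Log2 fold change between LT-HSC and ST-HSC (horizontal axis, log2(CPM + 1) scale) for the 8 tested members other than Pdgfc, as a red point with its SE from the limma fit, and as grey ticks with each library left out. Igf1 keeps 3.35 or more in every such fit, Vegfc stays between 0.74 and 1.22, and the ticks of Pdgfb, Vegfa and Vegfb fall on both sides of 0.

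To set the members against each other, CPM was divided by the length of the longest coding transcript in GENCODE M21. On this per-kilobase level, Igf1 came first in LT-HSC at 29.8 ± 9.32 CPM per kb (SD, n = 2), and both its libraries exceeded those of Vegfc, second at 17.4 ± 4.20. Pdgfc (15.0 ± 11.2), Pdgfa (14.0 ± 1.81), Pdgfd (13.0 ± 13.5) and Vegfb (12.2 ± 13.4) followed, with overlapping libraries that give no order among them or against Vegfc. Hgf was at 5.50 ± 0.331 CPM per kb, between the libraries of Pdgfd and of Vegfb, so its place against these is not fixed. It lay above both libraries of Pdgfb (2.10 ± 1.92). Pdgfb overlapped Vegfb and Vegfa (0.598 ± 0.313), and Pgf was unread.

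In ST-HSC the order per kb differed. By mean, Vegfb came first at 15.7 ± 9.45 CPM per kb (SD, n = 2), followed by Vegfc at 8.53 ± 0.316 and Pdgfa at 5.67 ± 6.63. The Pdgfa libraries, at 10.4 and 0.982, overlapped those of every gene from Vegfb to Vegfa, so its place is not fixed. Hgf (2.85 ± 1.77), Pdgfd (2.55 ± 0.690), Pdgfb (2.40 ± 2.92) and Igf1 (1.79 ± 1.32) overlapped. Vegfa at 0.890 ± 0.512 overlapped Pdgfb and Igf1, and Pgf and Pdgfc came last. Igf1 was thus order 1 of 10 in LT-HSC and, by mean, order 7 in ST-HSC. Igf1 transcripts vary much in length, and with the median coding transcript of each gene Igf1 was at 151 CPM per kb in LT-HSC, again order 1, and at 9.08 CPM per kb in ST-HSC, order 3.

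The receptors of these factors were mostly scarce, and their patterns were mixed. Kdr, Met, Igf1r, Insr and Igf2r were higher in both LT-HSC libraries than in both ST-HSC libraries, without passing the test. Over all tested genes 16.1% lay so. Pdgfrb and Flt4 overlapped between the groups, and the co-receptor genes Nrp1 and Cd44 lay lower in both LT-HSC libraries. Of the PDGF receptors, Pdgfra had 3 reads in LT-HSC 1 and 0 in the other libraries. Pdgfrb had 29 and 0 reads in LT-HSC 1 and 2 and 11 and 194 reads in ST-HSC 1 and 2, a log2 fold change of -1.46 ± 1.45 (SE, limma adjusted p = 0.950). Of the 8 genes for PDGF receptors and activation, 3 passed the filter, and 0 of these 3 separated the groups in either direction, beside 16.1% above and 17.5% below over all tested genes. The median of the 3 was -0.52. Of the genes that failed the filter, Plg, the plasminogen gene, had 0 reads in LT-HSC and 2 and 17 in ST-HSC 1 and 2, and Nrp1, given with the VEGF receptors, also lay lower in LT-HSC. Furin, a protease that processes PDGF precursors, stood at 47.8 and 25.2 CPM in LT-HSC 1 and 2 and 42.4 and 59.1 CPM in ST-HSC 1 and 2. The proteases Plat and Plau, known to activate PDGF-C and PDGF-D, had no read in any library.

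Among VEGF receptors, Kdr, which encodes VEGFR2, stood at 30.3 and 14.9 CPM in LT-HSC 1 and 2 and 10.4 and 8.49 CPM in ST-HSC 1 and 2, so the groups did not overlap (log2 fold change 1.10 ± 0.90 SE, limma adjusted p = 0.910, and 0.61 without LT-HSC 1). Flt4, the receptor gene for VEGF-C, had 0 and 147 reads in LT-HSC 1 and 2 and 51 and 71 in ST-HSC 1 and 2, with a log2 fold change of -0.67 ± 1.44 (SE, limma adjusted p = 1.0), or 1.0 without LT-HSC 1. Flt1 and Figf, the VEGF-D gene, were unread in all 4 libraries. The co-receptor genes failed the filter, Nrp1 with 0 and 1 reads in LT-HSC 1 and 2 and 117 and 7 in ST-HSC 1 and 2, and Nrp2 with 61 reads in LT-HSC 1 and 0 elsewhere. Of the 6 listed genes of this group, 2 were tested and 1, Kdr, lay above, beside 16.1% of all tested genes.

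For HGF, Met stood at 13.3 and 5.32 CPM in LT-HSC 1 and 2 and at 0.731 and 1.75 CPM in ST-HSC 1 and 2, and the groups did not overlap. Its log2 fold change was 2.12 ± 1.08 (SE, limma adjusted p = 0.815). St14, which encodes matriptase, an activator of HGF, stood at 11.2 and 4.27 CPM in LT-HSC 1 and 2 and at 0 and 0.876 CPM in ST-HSC 1 and 2 (2.55 ± 1.08 SE, limma adjusted p = 0.767). Cd44, an adhesion receptor that can act as a MET co-receptor, lay the other way, at 149.7 and 269.6 CPM in LT-HSC 1 and 2 and 381 and 527 CPM in ST-HSC 1 and 2 (-1.15 ± 0.36 SE, limma adjusted p = 0.723). Of the 9 genes of this group, 5 were tested, with 2 above, 1 below and a median of 0.07, beside 16.1% above and 17.5% below over all tested genes. St14 passed the filter only through its LT-HSC libraries. Its place among those above and the direction of its fold change were thus fixed beforehand.

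The IGF group held the other ligand with a large difference. Igf2 had 1352 and 827 reads in LT-HSC 1 and 2 and 0 in both ST-HSC libraries. With ST-HSC set to the same floors it was at least 385-fold higher in LT-HSC, and leaving out LT-HSC 1 lowered this bound to at least 255-fold. Its log2 fold change was 6.21 ± 1.03 (SE) and did not pass (limma adjusted p = 0.716). The filter kept Igf2 through LT-HSC alone, so this direction was fixed beforehand and the value is a description. Igf1 was read in all 4 libraries and Igf2 in LT-HSC alone. Igf1r, the receptor of both, stood at 65.1 and 24.3 CPM in LT-HSC 1 and 2 and at 21.2 and 18.8 CPM in ST-HSC 1 and 2. The groups did not overlap, and LT-HSC 1 was the high library (log2 fold change 0.96 ± 0.75 SE, limma adjusted p = 0.898, and 0.27 without LT-HSC 1). Insr, the insulin receptor gene, stood at 86.0 and 93.2 CPM in LT-HSC 1 and 2 and 66.6 and 38.1 CPM in ST-HSC 1 and 2 (0.82 ± 0.45 SE, limma adjusted p = 0.829, and 0.42 without ST-HSC 2). Of the 17 genes, 8 were unread in all libraries and 7 were tested, with 4 above, 0 below and a median of 0.96, beside 16.1% above, 17.5% below and a median of -0.01 over all tested genes. Igf2 passed the filter only through its LT-HSC libraries, so its place among those above was fixed beforehand. Igf2r, also among those above, stood at 37.5 and 37.5 CPM in LT-HSC 1 and 2 and at 32.0 and 10.1 CPM in ST-HSC 1 and 2. Igfbp4, an IGF binding protein gene, was the binding protein gene that was read throughout, at 143 and 123 CPM in LT-HSC 1 and 2 and 156 and 133 CPM in ST-HSC 1 and 2.

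**Figure D4:**
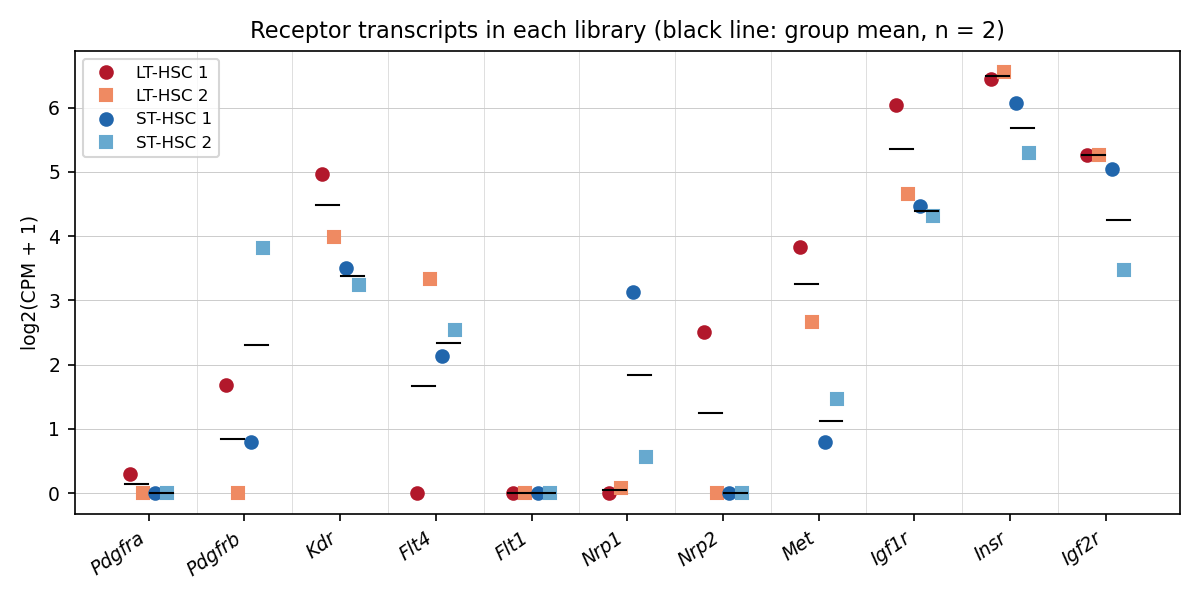
Level of each receptor transcript, log2(CPM + 1) on the vertical axis, with 1 point per library and a black line at each group mean (n = 2). Met, Kdr, Igf1r, Insr and Igf2r have both LT-HSC libraries above both ST-HSC libraries, and Pdgfra and Flt1 are at or near 0 in all 4.

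Downstream of the receptors, the 20 adaptor genes of receptor tyrosine kinases were all tested, with 3 above and 3 below, where 16.1% of all tested genes lay above and 17.5% below. Pik3r1, the gene of the PI3 kinase regulatory subunit, stood at 153 and 323 CPM in LT-HSC 1 and 2 and 79.7 and 107 CPM in ST-HSC 1 and 2 (log2 fold change 1.26 ± 0.44 SE, limma adjusted p = 0.755), or 0.73 without LT-HSC 2. Grb2, which links receptors to RAS, stood at 172 and 155 CPM in LT-HSC 1 and 2 and 237 and 215 CPM in ST-HSC 1 and 2 (-0.47 ± 0.23 SE, limma adjusted p = 0.815). Of 18 hypoxia-inducible factor (HIF) pathway genes, 17 were tested, with 2 above, 4 below and a median of -0.09, beside the same 16.1% and 17.5% over all tested genes.

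In that HIF group, Epas1, the HIF-2 alpha gene, had 36.9 and 36.8 CPM in LT-HSC 1 and 2 and 2.06 and 4.65 CPM in ST-HSC 1 and 2 (log2 fold change 3.19 ± 0.94 SE, limma adjusted p = 0.716). Car9, a carbonic anhydrase gene known as a HIF target, had 11.8 and 16.1 CPM in LT-HSC 1 and 2 and 83.7 and 49.3 CPM in ST-HSC 1 and 2 (-2.14 ± 0.65 SE, limma adjusted p = 0.716). The groups did not overlap for either gene, and Vegfa overlapped between them.

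Since other marrow cells make these factors, their markers were read beside the members. The 7 HSC markers were read in every library and summed to 2668 and 2827 CPM in LT-HSC 1 and 2 and 1862 and 1953 CPM in ST-HSC 1 and 2. The sort marker gene Cd9 stood at 134 and 124 CPM in LT-HSC 1 and 2 and at 100.3 and 113 CPM in ST-HSC 1 and 2. The 8 stromal markers summed to 74.0 and 7.18 CPM in LT-HSC 1 and 2 and 0.731 and 15.6 CPM in ST-HSC 1 and 2, with 4, 2, 1 and 4 of them read, and Lepr and Lum at 0 in all libraries. Of these, Col1a2, a collagen gene, had 508 and 111 reads in LT-HSC 1 and 2 and 0 and 1 in ST-HSC 1 and 2, and Cxcl12, a chemokine gene of marrow stroma, had 311 and 5 reads in LT-HSC and 0 in ST-HSC. Col3a1, another collagen gene, had 120 reads in LT-HSC 1 and 0 elsewhere. The remaining stromal markers that were read were highest in ST-HSC 2. Pdgfrb had 194 reads there and 29 or fewer elsewhere, Dcn 35 there and 0 elsewhere, and Col1a1 2 there and 0 elsewhere. The stromal sum was highest in LT-HSC 1, as Igf1 was, while Pdgfc and Pdgfd were highest in LT-HSC 2, and the part of stromal transcripts in these results was not tested.

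The 8 macrophage markers summed to 76.6 and 17.5 CPM in LT-HSC 1 and 2 and 135 and 65.8 CPM in ST-HSC 1 and 2. Siglec1 was at 0 throughout. Beside these sums, Igf1 stood at 257 and 164 CPM in LT-HSC 1 and 2 and at 6.05 and 19.2 CPM in ST-HSC 1 and 2. The 7 megakaryocyte markers summed to 114 and 81.4 CPM in LT-HSC 1 and 2 and 258 and 193 CPM in ST-HSC 1 and 2, with Gp6 at 0. Itga2b, the CD41 gene, stood at 2.45 and 5.01 CPM in LT-HSC 1 and 2 and at 152 and 105 CPM in ST-HSC 1 and 2. Without it the groups overlapped, with sums of 111 and 76.4 CPM in LT-HSC 1 and 2 and 106 and 87.5 CPM in ST-HSC 1 and 2. The 7 endothelial markers, several of which HSCs also express and which include Kdr and Flt4, summed to 365 and 404 CPM in LT-HSC and 308 and 343 CPM in ST-HSC. All 7 were tested, with 2 above and 1 below, beside 16.1% and 17.5% over all tested genes. The 1 below was Stab2, with 0 reads in LT-HSC and 426 and 229 in ST-HSC 1 and 2. Stab2 passed the filter only through its ST-HSC libraries, so the direction of its difference was fixed beforehand. Its log2 fold change was -4.46 ± 1.02 (SE, limma adjusted p = 0.716). The 9 granulocyte markers summed to 341 and 269 CPM in LT-HSC 1 and 2 and 538 and 272 CPM in ST-HSC 1 and 2, with Ctsg at 0 throughout. The part of these cell types in the growth factor values was not tested.

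**Figure D5:**
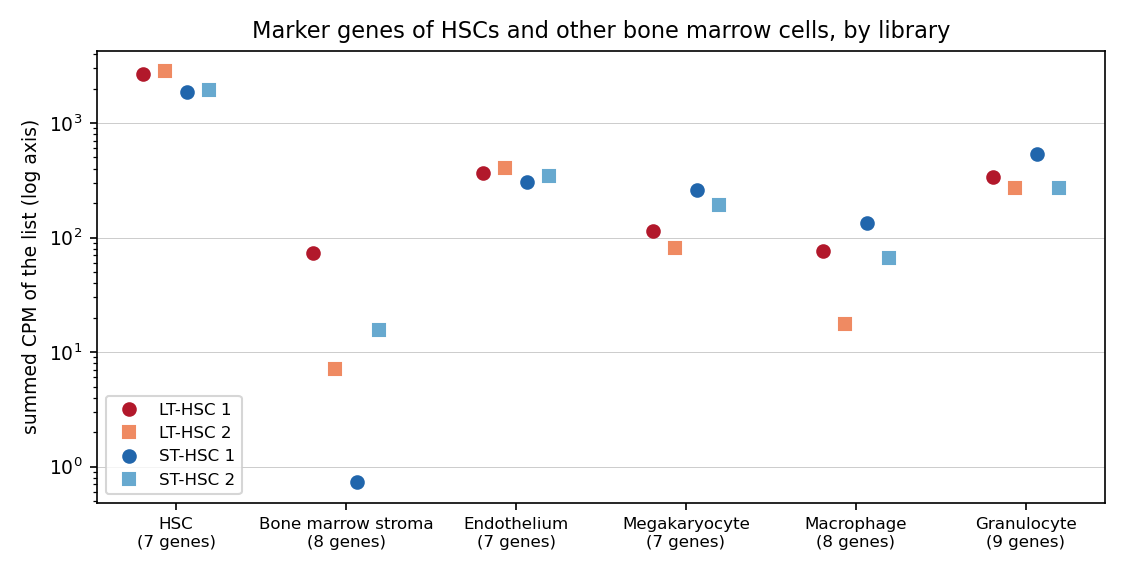
Summed CPM of each marker list (vertical axis, log scale) with 1 point per library. The stromal list is highest in LT-HSC 1 (74.0 CPM) and lowest in ST-HSC 1 (0.731 CPM), and the macrophage and megakaryocyte lists are lowest in LT-HSC 2.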

How the data were processed

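The data are 4 RNA sequencing libraries, made with the SMARTer cDNA kit from 2000 sorted cells each, per the labels' protocols. TopHat (version not given) and the mm9 build are named in the submitters' processing notes, without their role. What counted the reads, and on which annotation, is not given in the sources used here. The authors deposited 1 value per gene and library on a log2 scale. Steps between low values match log2 of reads plus 1 per 1000000 library reads, so reads and CPM were recovered from them, and 100.0% of the values of up to 100 reads lay within 0.1 of whole reads. That scale was set on the same steps. If unread genes had instead been raised to 1 read, each read gene would hold 1 read more.

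The main test had been planned for log values: log2(CPM + 1) was tested with limma 3.58.1 (trend, robust shrinkage, statmod 1.5.0, R 4.3.3) over the 12569 genes that reached 1 CPM in 2 or more libraries, and p-values were adjusted by Benjamini-Hochberg over all of them at a threshold of 0.05. With 2 libraries against 2, an exact permutation test could not go below 0.333 and was not used. The limma step was tested on simulated reads with known changes. Their noise was set to the same level for all genes and not fitted to these libraries. The simulation therefore does not tell how many changes the test can find here. The chi-square over its degrees of freedom between libraries of a group was 168 in LT-HSC and 134 in ST-HSC, far above that of a library deposited again.

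The members and lists were chosen with earlier results of these data known. Named are the 10 members, their receptors, Igf2 and Figf, up to 2 genes with the smallest p in each pathway list, the 5 genes nearest to Pdgfc, and Cd9. A gene that the rule names is not reported here. Plat, Plau, Plg, Igfbp4, Col1a1, Col1a2, Col3a1, Cxcl12, Dcn, Itga2b and Stab2 were chosen after their values were seen. So were Igf2r, Prtn3, Mpo, Ngp, Camp and Ltf. A planned comparison of protein sequences was not made. The alternatives were other scaling factors, added values, filters, equal depth by thinning, a block for the replicate number, limma-voom, plain shrinkage and leaving out each library.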

Additional observations from a re-analysis of the deposited data

How the results depend on the processing

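Under the 15 alternatives, limma or limma-voom called 0 genes at an adjusted p of 0.05 in each, and the smallest adjusted p, 0.716 in the main analysis, was 0.0714 when ST-HSC 1 was left out and 0.841 when low genes were kept. The unadjusted count of 814 was 415 without ST-HSC 2 and 1116 without LT-HSC 2. For the 8 members other than Pdgfc, the median log2 fold change of 0.99 ranged from 0.81 to 1.05 under the other settings and from 0.67 to 1.29 with 1 library left out. Under the filter of 5 CPM Vegfa was not tested, and without either LT-HSC library Pdgfc was not. Pdgfb changed sign with 5 added in place of 1 (-6.50e-04) and ranged from -1.25 to 1.57 with 1 library left out. In the same fits Vegfa ranged from -0.84 to 0.07, Vegfb from -2.09 to 0.58 and Flt4 ranged from -2.33 to 1.0. Igf1 lay between 3.69 and 4.24 under the other settings, with adjusted p from 0.307 to 0.841 over all 15. Genes read in LT-HSC only numbered 164 and 92 with at least 10 and 30 reads in place of 3, and genes read in ST-HSC only 90 and 43, since higher minimums keep fewer genes. The values deposited by the authors, tested as they are, and the megakaryocyte sum without Itga2b were added after seeing the data. The labels do not say that a replicate number pairs libraries, and deviations from the group means of same-numbered libraries correlated at 0.052 over 12569 genes. With the replicate number as a block, limma called 0 genes and passed 876 unadjusted, and the median of the 8 members was 0.99. Reads limit Vegfa and Pgf most, with 21 to 65 and 0 to 4 reads per library.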

Other observations

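Some other genes of the same pathways differed widely between libraries of the same group. Irs1, which encodes a docking protein of the insulin and IGF1 receptors, had 455 and 0 reads in LT-HSC 1 and 2 and 0 and 47 in ST-HSC 1 and 2. Irs2, another docking protein gene, had 68 and 11 reads in LT-HSC 1 and 2 and 0 and 82 in ST-HSC 1 and 2. Hgfac, the gene of an HGF-activating protease, had 1 and 154 reads in LT-HSC 1 and 2 and 302 and 12 in ST-HSC 1 and 2. Igfbp7, an IGF binding protein gene, had 88 reads in ST-HSC 1 and 0 elsewhere. These genes were picked after their values were seen. Igfbp7 did not pass the filter, and limma gave adjusted p = 0.986 for Irs1 and 1.0 for Irs2 and Hgfac.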
